A study of Mus musculus with 4 samples.

Results

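A set of 97 protein-coding genes that were abundant in 46C mouse embryonic stem cells (mESCs) and lower after treatment with Go6983 was described from RNA-sequencing of 4 samples. The 2 NT samples came from 46C mESCs in serum-containing control medium, and the 2 Go6983 samples from the same line in that medium with 5 μM Go6983 for 24 h. Go6983 is a small-molecule inhibitor of several protein kinase C (PKC) isoforms. Whether LIF or a vehicle was present, and whether the replicates were separate cultures, is not stated, so the spread between replicates may be technical. The table gives 1 log2 value per gene and sample, which is the log2 of a normalized read count plus 1, and it lists 1577 genes that the authors had selected, of which 478 were lower with Go6983. The 97 genes were chosen on these same values, as protein-coding genes with a mean log2 value of at least 8 over the 4 samples and a log2 difference (mean Go6983 minus mean NT) of -1 or less. Another 29 genes past both limits were left out by name, among them the *Dnmt3* genes, well-studied genes such as *Myc*, *Otx2* and *Fgf5*, genes named *Zfp* or *Zscan*, transporters, and adhesion and guidance molecules. The values that chose the genes are given here as a description, without a test.

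PKCs are serine/threonine kinases that respond to lipid messengers and calcium and act on many routes in the cell, including growth factor signaling, adhesion and the activity of transcription factors. In mESCs, growth factor signals such as Fgf favour exit from self-renewal, whereas PKC inhibition is known to hold the cells in an undifferentiated state. The genes described here are not 1 pathway. They are the remainder of the abundant genes with a fall after the larger families were set aside, and they include ligands, receptors, transcription factors, enzymes, and neuronal and cytoskeletal proteins.

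The reads recovered from the listed genes numbered 859777 to 1054236 per sample, and no value among the 97 genes was 0. The 97 genes held 117 to 23267 reads each per sample. They took 36.1% to 36.5% of the reads of the listed genes in the NT samples and 12.8% to 14.3% in the Go6983 samples. The lower share with Go6983 follows from the choice of the genes, on a list of which most genes were higher. Of the 10 mESC markers looked up, 3 were in the table, namely *Nanog* with a log2 difference of 1.06, *Klf4* with 1.01 and *Utf1* with -1.15, and of 20 markers of other cell types only *Col1a2* and *Pax6* were in it, both at low levels. The other markers, *Pou5f1* and *Sox2* included, have no row in this list of selected genes, so the check of the cell type stays incomplete, and in bulk RNA fewer cells of a type and less RNA per cell cannot be told apart.

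All 97 genes had both Go6983 samples below both NT samples. So had 475 of the 478 listed genes that were lower, which is 30.1% of all 1577 listed genes. All 97 were past an adjusted p of 0.05 in limma. So were 469 of the 478 lower genes, which is 29.7% of all listed genes. Both counts for the 97 genes follow from the way they were chosen and carry no further information about them. The median log2 difference of the 97 genes was -1.24, with a range of -3.60 to -1.001, beside -1.59 over the 381 other listed genes that were lower and -1.47 over the 29 genes left out by name. Most of the falls were small for this table: 75 genes lay above -1.5, 15 between -2 and -1.5, and 7 at -2 or below. The same 7 genes kept under 25% of their NT level, and 36 kept under 40%. The gap between the lowest NT and the highest Go6983 value was at least 1 on the log2 scale in 61 genes, and it was under 0.5 in 2.

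**Figure D1:**
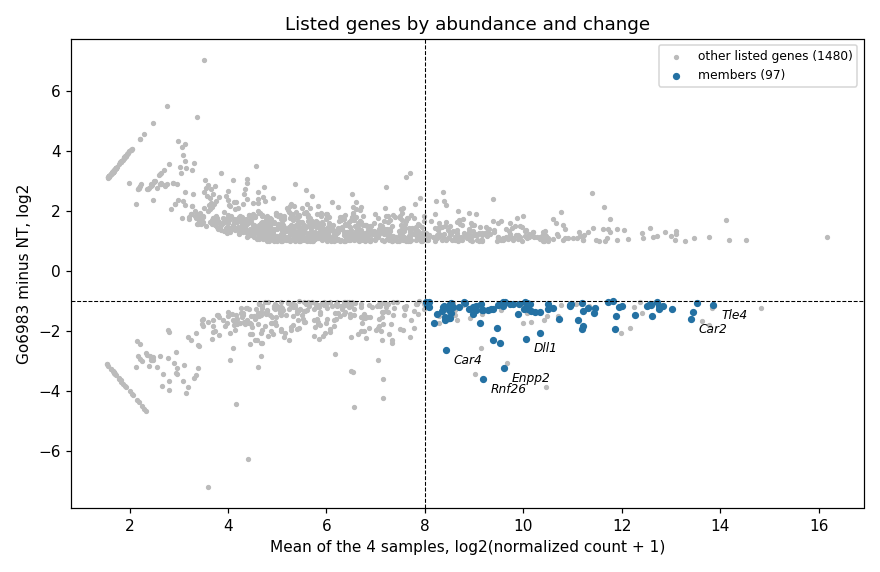
Mean log2 value over the 4 samples (x axis) against the log2 difference, mean Go6983 minus mean NT (y axis), with 1 point per listed gene and the 97 genes in blue. The 97 genes lie in the region above a mean of 8 and below a difference of -1, and most of them lie close to the upper edge of that region, with *Rnf26* at -3.60 and *Enpp2* at -3.23 furthest from it.

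At the limit on abundance, the genes just inside were *Fam222a* with a mean log2 value of 8.02, *Dll3* with 8.04 and *Papolb* with 8.08, and those just outside were *Cacng8* with 7.99, *Per2* with 7.88 and *Psmb10* with 7.85. At the limit on the fall, *Lyar* (-1.001), *Papolb* (-1.01) and *Smim10l1* (-1.01) lay just inside. No gene lay just outside that limit, since the table holds no lower gene with a smaller fall. The edge of the set is thus in part the edge of the authors' own selection.

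The largest falls were those of a ubiquitin ligase and a lysophospholipase. *Rnf26*, which encodes a RING-type ubiquitin ligase of the endoplasmic reticulum, had 2068 and 1949 normalized counts in the NT replicates, and 154 and 177 with Go6983. Its mean moved from 2008 ± 84.1 to 165 ± 15.97 (SD, n = 2), a log2 difference of -3.60, and the replicates of each group lay close together. *Rnf26* (GRCm38 chr9:44095631-44113517, minus strand) shares 56.6% of its exon bases, on the same strand, with the annotated gene *Gm49380*, which was itself listed with a log2 difference of -6.26, so reads could be split between the pair. *Enpp2* encodes autotaxin, the secreted enzyme that makes lysophosphatidic acid. It had normalized counts of 2440 and 2320 without Go6983 and of 330 and 193 with it, a log2 difference of -3.23. The Go6983 replicates of *Enpp2* were further apart than its NT replicates, but both were far below them.

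Of the remaining 5 genes at -2 or below, *Car4* encodes a membrane-anchored carbonic anhydrase and is described with its family. *Trim36*, which encodes a ubiquitin ligase of the TRIM family, had 1794 and 1565 normalized counts in NT against 324 and 319 in Go6983, a log2 difference of -2.38. *Magel2*, an imprinted gene expressed from the paternal allele whose protein works with ubiquitin ligases in endosomal sorting, had 1530 and 1409 against 337 and 267, a log2 difference of -2.29. *Dll1*, a ligand of Notch receptors, had 2401 and 2244 against 611 and 394, a log2 difference of -2.24. *Fgf15*, a growth factor of the endocrine Fgf group, had 2598 and 2627 against 724 and 556, a log2 difference of -2.04. In each of these 4 genes the higher Go6983 value was well under the lower NT value. *Dll1* shares 20.5% of its exon bases with a lincRNA on the other strand and *Fgf15* 24.9% with the antisense gene *Gm26793*, which was also listed, with a log2 difference of -1.27. Whether the counting used strand is not stated in the sources used here.

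Promoters are shown for 4 genes as examples of words searched for. The word TGANTCA is in *Dll1*, *Magel2* and *Gja1*. It is a looser form of the phorbol ester response element bound by AP-1, TGAGTCA or TGACTCA. The match in *Dll1*, TGATTCA, is not that element. The cAMP response element, written TGACGTCA, is in *Foxd3*. Each promoter runs 5′ to 3′ from 250 bases before to 50 bases after the RefSeq gene start in GRCm38.p6, with the match in capitals. They lie at chr17:15376883-15377182 (minus strand) for *Dll1*, chr7:62376729-62377028 (plus strand) for *Magel2*, chr10:56377050-56377349 (plus strand) for *Gja1* and chr4:99656049-99656348 (plus strand) for *Foxd3*.
Dll1: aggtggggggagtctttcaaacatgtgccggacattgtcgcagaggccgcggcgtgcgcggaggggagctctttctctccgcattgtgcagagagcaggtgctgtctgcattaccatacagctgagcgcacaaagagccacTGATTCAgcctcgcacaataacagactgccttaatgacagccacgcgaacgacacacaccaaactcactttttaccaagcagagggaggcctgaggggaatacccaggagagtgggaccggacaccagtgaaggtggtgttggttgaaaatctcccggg
Magel2: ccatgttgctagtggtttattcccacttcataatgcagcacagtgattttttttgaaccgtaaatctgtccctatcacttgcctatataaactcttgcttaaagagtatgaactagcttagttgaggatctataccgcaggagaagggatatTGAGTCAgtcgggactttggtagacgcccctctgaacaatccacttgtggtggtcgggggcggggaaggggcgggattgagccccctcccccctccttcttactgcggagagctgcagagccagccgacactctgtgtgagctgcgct
Gja1: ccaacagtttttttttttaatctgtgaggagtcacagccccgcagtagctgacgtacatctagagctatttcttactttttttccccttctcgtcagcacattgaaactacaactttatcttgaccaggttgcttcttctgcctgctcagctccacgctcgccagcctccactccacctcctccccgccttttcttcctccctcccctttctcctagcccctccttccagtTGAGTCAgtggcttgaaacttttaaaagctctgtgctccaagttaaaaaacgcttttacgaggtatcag
Foxd3: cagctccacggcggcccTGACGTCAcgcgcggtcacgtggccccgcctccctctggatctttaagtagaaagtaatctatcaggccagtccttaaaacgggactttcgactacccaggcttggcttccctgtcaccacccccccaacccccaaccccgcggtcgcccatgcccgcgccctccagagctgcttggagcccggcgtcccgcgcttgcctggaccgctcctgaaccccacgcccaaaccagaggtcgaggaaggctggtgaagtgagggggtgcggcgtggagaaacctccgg
The promoter of *Rnf26*, whose RefSeq start lies inside the annotated gene, held no match to any word searched here and is not shown. A promoter was held for 72 of the 97 genes. That is under 80% of the genes, so a comparison of the set with other promoters is void, and the matches are given as a description. Searched on both strands, TGANTCA was found in *Dll1*, *Magel2*, *Gja1*, *Ms4a14* and *Clca3b*, 6.94% of the 72 genes held. It was in 7.92% of all 27025 promoters. The match in *Dll1* and *Clca3b* was TGATTCA, so both shares are of the looser word. TGACGTCA was found in *Foxd3*, 1.39% of the genes held, and in 1.85% of all promoters. Neither word contains the other. Also searched were the E-box CACGTG, in *Fgfr2*, *Foxd3* and *Tle4* and in 7.24% of all promoters, the ETS word CCGGAAGT, in *Csnk1g1*, *Fkbp1a* and *Tmem230* and in 3.99% of all, and the TCF/LEF word CTTTGAA, in *Aass* and *Sgk1* and in 5.26% of all. The GC box GGGCGG was found in 38 of the 72 genes held, in 35.9% of all promoters and in 67.9% of the 159 held for the abundant genes that were higher. The TATA box TATAAA was found in 7 of the 72, in 14.2% of all promoters and in 10.1% of those 159. A match is a run of letters and not a measured site.

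Transcription factors and cofactors made up 17 of the genes, with a median log2 difference of -1.40. *Sall2*, a zinc finger factor of neural development, had 7921 and 6644 normalized counts in the NT replicates, and 2148 and 1708 with Go6983, a log2 difference of -1.92. *Neurod1*, a basic helix-loop-helix factor of neuronal and endocrine cells, had 1459 and 1270 against 405 and 325, a log2 difference of -1.90. *Grhl2*, an epithelial factor that acts on junction genes, had 4854 and 4091 against 1398 and 1156, a log2 difference of -1.81. These were the factors with the largest falls, and in each the NT replicate 1 and Go6983 replicate 1 were the higher ones. *Bcl11a*, a zinc finger repressor known from globin switching, and *Tbx4*, a T-box factor of the hindlimb, had lower counts and log2 differences of -1.61 and -1.53. *Myrf*, a membrane-bound factor of myelinating cells, had 8939 and 7447 against 3185 and 2800, a log2 difference of -1.45.

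Developmental factors of other families filled much of the rest of that group. The forkhead genes were *Foxi3*, *Foxj1*, a factor of motile cilia, and *Foxd3*, which is needed in the epiblast and in mESCs, with log2 differences of -1.42, -1.29 and -1.23. *Foxd3* had normalized counts of 2534 and 2230 without Go6983 and of 1019 and 1003 with it. The homeobox gene *Nkx2-9*, the vertebra number gene *Vrtn* and the Sp factor gene *Sp6* had log2 differences of -1.40, -1.42 and -1.28. The NT replicates of *Sp6* were far apart: it had 726 and 431 normalized counts in them, and it shares 86.7% of its exon bases with a transcript on the other strand.

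Smaller falls were those of *Tle4*, a Groucho-type corepressor, *Nr1d1*, a circadian nuclear receptor, *Etv1*, an ETS factor that responds to Fgf signaling, *Trp73*, a p53 relative, and *Dmrtb1*, a germline factor. *Tle4* had the highest mean log2 value of the 97 genes, 13.86, without a correction for length, with 23140 and 20917 normalized counts in NT against 9474 and 10754 in Go6983, a log2 difference of -1.12. *Etv1* had 3057 and 2781 against 1420 and 1302, a log2 difference of -1.10, and *Trp73* had 2254 and 1974 against 1016 and 964, a log2 difference of -1.09. It was the 1 gene of a list of 44 p53 genes in the table. The groups did not overlap in any of them, as in the whole set, though each kept over 40% of its NT level.

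Ligands, receptors and signaling regulators were the largest group, with 24 genes and a median log2 difference of -1.16. Beside *Dll1*, the divergent Notch ligand *Dll3* had 401 and 379 normalized counts in the NT replicates, and 142 and 222 with Go6983, a log2 difference of -1.13. The Go6983 replicates of *Dll3* differed more than its NT replicates. Of 82 genes on a list of Wnt, Notch and hedgehog signaling, 6 were in the table, 5 lower and 1 higher, and *Dll1* and *Dll3* were the members of the set among them. The other lower genes were *Ihh*, *Dkk1* and *Dll4*, and *Wnt11* was the higher one.

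The growth factor list had the most members in the set. It was also among the longest, and the lists were chosen with earlier results of these data known. Of 81 genes on a list of growth factor and receptor tyrosine kinase signaling, 12 were in the table, 9 lower and 3 higher, and 7 of the 9 belonged to the set. After *Fgf15*, the receptor gene *Fgfr2* had normalized counts of 690 and 560 without Go6983 and of 260 and 174 with it, a log2 difference of -1.54. *Gfra1*, the co-receptor for Gdnf, had 550 and 458 against 192 and 178, a log2 difference of -1.44. *Fgfbp1*, a carrier that releases Fgf from the matrix, had 1158 and 1327 against 549 and 614, a log2 difference of -1.09. Both Go6983 values of the receptor, the co-receptor and the carrier lay below both NT values, as in the whole set.

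The feedback inhibitors of the same route in the set were *Spred3* and *Dusp6*, with falls close to that of *Fgfbp1*. *Dusp4* and *Spry4* were kept out of the set by name and are not described here. *Spred3*, a Sprouty-related inhibitor of Ras to Erk signaling, had 1735 and 1543 normalized counts against 746 and 808, a log2 difference of -1.07. *Dusp6*, the phosphatase that removes the activating phosphates of Erk, had 4788 and 4802 against 2510 and 2229, a log2 difference of -1.02. *Dusp6* thus lay near the limit of the set, with NT replicates that were almost equal. The lower genes of the list outside the set were *Kdr* and *Gfra3*, and *Ltk*, *Insr* and *Kit* were higher, so the list moved in both directions. On lists of PKC genes (53 genes, 2 listed as higher and 1 as lower) and of AP-1 and CREB genes, no gene belonged to the set, and of the 49 AP-1 and CREB genes none was in the table at all.

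Other ligands and receptors covered several routes. *Lefty1*, a secreted inhibitor of Nodal, had 8157 and 9434 normalized counts in NT against 4170 and 3735 in Go6983, a log2 difference of -1.15, and it was the 1 lower gene among 53 on a list of Nodal, TGF-β and BMP signaling, on which 2 were higher. *Fkbp1a*, which encodes the FK506-binding protein that keeps type I TGF-β receptors inactive, had 9548 and 11812 against 4642 and 4321, a log2 difference of -1.25. Both genes had NT replicate 2 above NT replicate 1, the reverse of most of the set. *Cntfr*, the receptor subunit for ciliary neurotrophic factor, had 2063 and 1833 against 934 and 606, a log2 difference of -1.37. *Sulf1*, a sulfatase that trims heparan sulfate, had a log2 difference of -1.32, and *Lpar6*, a receptor for the lysophosphatidic acid that autotaxin makes, had 1257 and 1326 against 597 and 611, a log2 difference of -1.10. The matrix-associated factor gene *Ccn2*, a gene known to respond to Yap, and the kinase gene *Sgk1* had log2 differences of -1.13 and -1.14. *Ccn2* shares 23.2% of its exon bases with *Gm15270* on the other strand, which was listed as higher, at 1.28.

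Further members of the group included *Bcar1*, the scaffold p130Cas of focal adhesions. *Bcar1* had 9602 and 9507 normalized counts in the NT replicates, and 4768 and 4721 with Go6983, a log2 difference of -1.01. Its replicates were among the closest of the set. *Csnk1g1*, a casein kinase 1 gene, was the opposite case. It had normalized counts of 1348 and 3722 without Go6983 and of 955 and 913 with it, a log2 difference of -1.26 that became -0.53 without NT replicate 2 and -1.99 without NT replicate 1. *Arrb1*, *Vgf*, *Nell1*, *Ramp3*, *Tmem88* and *Ppp1r1a* had log2 differences of -1.28 to -1.01.

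**Figure D2:**
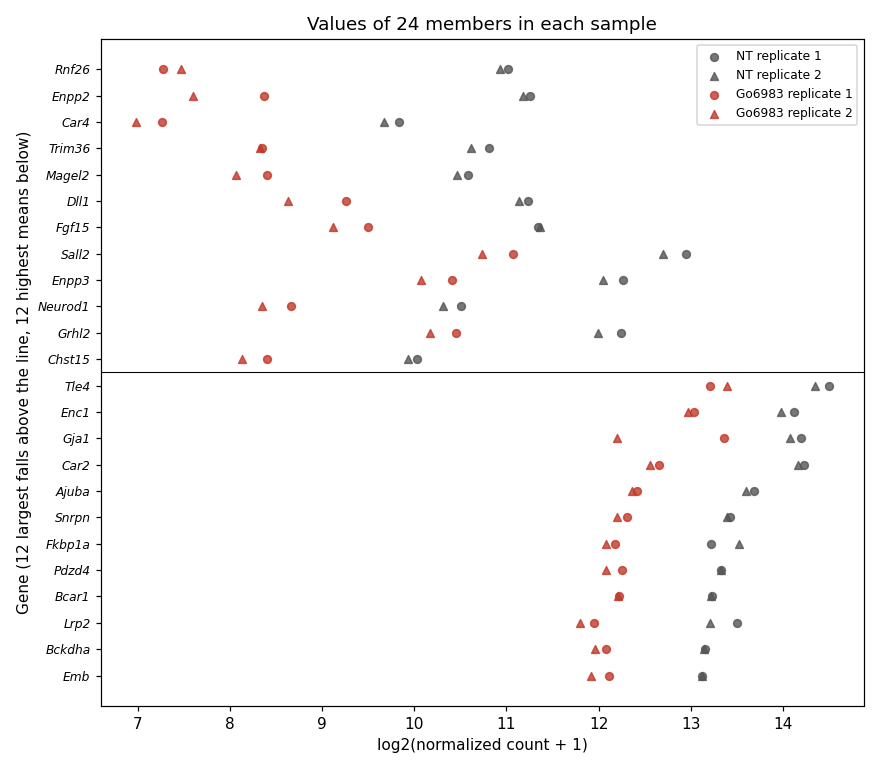
Log2 of the normalized count plus 1 (x axis) in each of the 4 samples for 24 of the 97 genes (rows), the 12 with the largest falls above the line and the 12 with the highest means below it. Grey marks are NT and red marks Go6983, with circles for replicate 1 and triangles for replicate 2. In all 24 rows the red marks lie left of the grey ones, and the red marks of *Gja1* are the furthest apart.

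Carbonic anhydrases, the enzymes that interconvert carbon dioxide and bicarbonate, were 3 of the genes. *Car4* had 914 and 813 normalized counts in NT against 152 and 125 in Go6983, so that its mean moved from 864 ± 71.1 to 139 ± 19.0 (SD, n = 2), a log2 difference of -2.63. *Car2*, the cytosolic form, had 19162 and 18340 against 6456 and 6011, a log2 difference of -1.59. *Car3*, a cytosolic form of low activity, had 551 and 595 against 223 and 283, a log2 difference of -1.19. *Car2* had the highest NT level of the set per length, 7742 normalized counts per kilobase of exon, beside 2574 in Go6983. *Car3* and *Car2* (GRCm38 chr3:14886273-14900770, plus strand) are neighbours with 13.7 kb between them, whereas *Car4* is on chromosome 11.

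Enzymes and carriers of lipids and small molecules were 11 genes with a median log2 difference of -1.27. After *Enpp2*, the ectoenzyme gene *Enpp3* of the same family had 4903 and 4241 normalized counts in the NT replicates, and 1364 and 1075 with Go6983, a log2 difference of -1.91. *Chst15*, a sulfotransferase of chondroitin sulfate, had 1048 and 978 against 337 and 280, a log2 difference of -1.72. *Aass*, which starts lysine breakdown, had 537 and 513 against 161 and 159, a log2 difference of -1.71. For all 3 the Go6983 level was under 40% of the NT level. The fatty acid to CoA ligases *Acsl4* and *Acsl5* had log2 differences of -1.17 and -1.08, and *Agpat2*, an acyltransferase of phosphatidic acid synthesis, had 1576 and 1816 against 661 and 742, a log2 difference of -1.27.

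In the same group, *Lrp2*, the endocytic receptor megalin, had normalized counts of 11625 and 9479 without Go6983 and of 3942 and 3568 with it, a log2 difference of -1.48. *Bckdha*, a subunit of the branched-chain keto acid dehydrogenase, had 9112 and 9081 against 4314 and 3995, a log2 difference of -1.13. It shares 61.7% of its exon bases with *B3gnt8* on the other strand. *Adk*, adenosine kinase, and *Crabp2*, a carrier of retinoic acid, had log2 differences of -1.21 and -1.03. The glycolysis and sterol lists, of 43 and 45 genes, had no gene in the set. Nor had lists of 39 ATF4 targets, 72 histone and chromatin genes and 41 germline genes. The germline factor *Dmrtb1* of the set is not on the last of these, so the counts cover the lists only.

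Ubiquitin ligases and Kelch proteins were 7 genes with a median log2 difference of -1.38. Beside *Rnf26*, *Trim36* and *Magel2*, they were *Kbtbd11*, *Rnf146*, a ligase that reads poly-ADP-ribose, *Rnf8*, a ligase of the DNA damage response, and *Enc1*, an actin-binding Kelch protein. *Enc1* had 17754 and 16187 normalized counts in NT against 8379 and 8052 in Go6983, a log2 difference of -1.05. *Rnf146* had 2042 and 2090 against 725 and 902, a log2 difference of -1.35. It shares 70.2% of its exon bases with *Echdc1* on the other strand, and *Kbtbd11* 24.8% with *Gm37844*, also on the other strand. *Rnf8*, at -1.27, shares 13.2% of its exon bases with *Gm28043* on the same strand, which was listed as higher, at 1.20. Reads could thus be split between that pair, which was not tested. The group held both the deepest fall of the set and one of the shallow ones.

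Imprinted genes were spread over the groups. Of 44 genes on an imprinted list, 6 were in the table, 4 lower and 2 higher, and *Magel2*, *Cdkn1c* and *Snrpn* were in the set. *Cdkn1c*, the maternally expressed cell cycle inhibitor p57, had 3922 and 3834 normalized counts in the NT replicates, and 1462 and 1090 with Go6983, a log2 difference of -1.62. *Snrpn*, a paternally expressed spliceosomal protein gene, had 11007 and 10790 against 5078 and 4719, a log2 difference of -1.15. *Magel2* and *Snrpn* are both on chromosome 7, as is *Cdkn1c*, and the list's other lower gene was *Calcr*, while *Plagl1* and *Dio3* were higher. *Snrpn* shares 27.3% of its exon bases with a further gene on the same strand, and *Cdkn1c* 30.7% with an antisense gene. *Cdkn1c* was also the 1 lower gene among 54 on a cell cycle list, on which 1 was higher. The other cell cycle genes of the set, *Sertad4* and *Rprm*, had log2 differences of -1.19 and -1.16.

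Neuronal and synaptic protein genes were 10, with a median log2 difference of -1.21 and a narrow range of -1.47 to -1.06. *Crmp1*, which acts in axon guidance, had normalized counts of 6268 and 6281 without Go6983 and of 2320 and 2199 with it, a log2 difference of -1.47. *Pdzd4*, a PDZ-domain gene on the X chromosome, had 10297 and 10283 against 4887 and 4319, a log2 difference of -1.16. In both genes the NT replicates were nearly equal. The presynaptic genes *Rimbp2* and *Syt13* had log2 differences of -1.30 and -1.28, the caytaxin gene *Atcay* -1.24, *Nav2* -1.22, the glutamate receptor partner *Neto2* -1.17, and *Cdk5r2*, an activator of Cdk5, -1.08. *Lrrc24*, at -1.20, shares 46.8% of its exon bases with *Lrrc14* on the other strand. Of 72 genes on a list of neural transcription factors, 13 were in the table, 10 lower and 3 higher, of which *Sall2* and *Neurod1* were abundant enough for the set.

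Cytoskeletal, junction and membrane protein genes were 7, with a median log2 difference of -1.25. *Gja1*, which encodes the gap junction protein connexin 43, had 18745 and 17321 normalized counts in NT against 10503 and 4693 in Go6983. Its log2 difference of -1.36 rests on Go6983 replicates that differ widely, and leaving out Go6983 replicate 2 made it -0.78, while leaving out replicate 1 of that group made it -1.94. *Ajuba*, a LIM protein of adherens junctions, had 13150 and 12432 against 5449 and 5278, a log2 difference of -1.25, with close replicates in both groups. *Emb*, the immunoglobulin-type membrane protein embigin, had 8884 and 8891 against 4416 and 3869, a log2 difference of -1.10. *Tgm1*, *Clca3b* and *Crip2* had log2 differences of -1.27, -1.07 and -1.06. Of 83 genes on a list of actin and SRF targets, none was in the set, and 4 of the 5 in the table were higher.

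Genes of RNA and protein modification were 6, with the smallest median, -1.08. Beside *Snrpn*, they were *Mrps21*, a mitochondrial ribosomal protein gene, at -1.31, *Prmt8*, an arginine methyltransferase known from brain, at -1.18, *Gon7* and *Papolb*, both at -1.01, and *Lyar*, a nucleolar protein gene, at -1.001. *Lyar* had 7195 and 3640 normalized counts in the NT replicates, and 2420 and 2700 with Go6983, and its log2 difference became -0.51 when NT replicate 1 was left out and -1.49 when replicate 2 was. The Go6983 replicates of *Lyar* were close, and the uncertainty lies in the NT replicates.

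The last 9 genes are less well characterised. *Tmem254a*, *Tmem254b* and *Tmem254c* are close copies in a tandem block on chromosome 14 and had almost the same values: *Tmem254a* had normalized counts of 662 and 581 without Go6983 and of 215 and 202 with it, with log2 differences of -1.57, -1.55 and -1.56 for the 3 copies. Their reads may be shared, so that they are uncertain as 3 separate genes. The same block holds 3 *Duxbl* and 3 *Cphx* homeobox genes, all 6 of which were listed as lower, at -2.22 to -1.496, but fell short of the abundance limit. *Platr17*, annotated here as protein-coding, had 1593 and 1585 against 653 and 678, a log2 difference of -1.25. *Ms4a14*, *Tmem230*, *D630023F18Rik*, *Smim10l1* and *Fam222a* had log2 differences of -1.32 to -1.01.

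**Figure D3:**
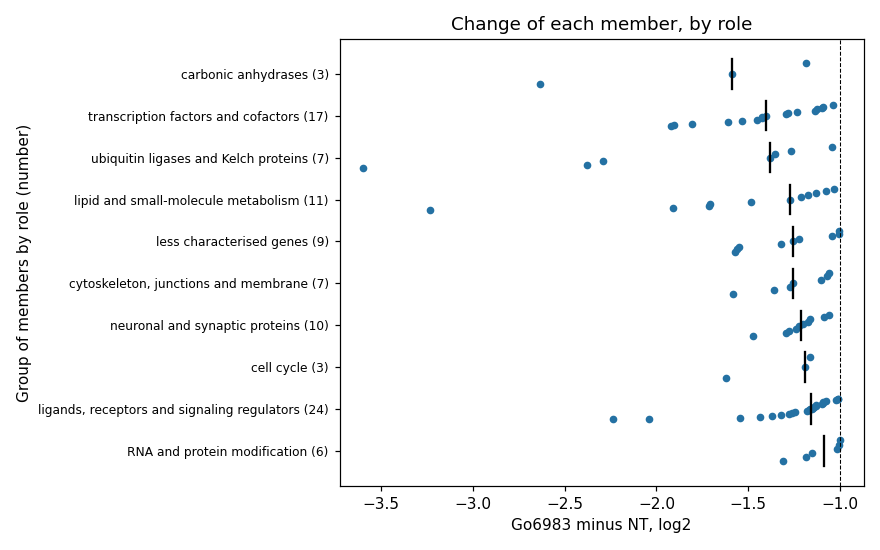
Log2 difference, mean Go6983 minus mean NT (x axis), of each of the 97 genes, in rows by group of function, with the median of each group as a bar. The medians lie between -1.59 for the 3 carbonic anhydrases and -1.08 for the 6 genes of RNA and protein modification, and the ranges of the 10 groups overlap.

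In position the genes were scattered. They lay on 19 chromosomes, with 12 on chromosome 7, which is 12.4% of the set beside 9.18% of the 22028 annotated protein-coding genes, and 8 each on chromosomes 11 and 14. Within 200 kb of each other there were 5 pairs. They were the neighbouring *Tmem254* copies, *Car3* with *Car2*, *Ccn2* with *Enpp3* 174 kb apart, and *Fgfr2* with *Chst15*. The last pair counts only because the annotated span of *Fgfr2* covers *Chst15*. The RefSeq promoter of *Fgfr2* is at chr7:130266759-130267058, whereas *Chst15* lies at chr7:132235780-132317228. Some listed neighbours moved the other way. *Foxj1* lies 0.953 kb from *Rnf157*, which had a log2 difference of 1.51, and *Adk* lies 32.9 kb from *Kat6b*, which had 1.04. The median exon length of the set was 3761 bases, beside 2562 for the other lower genes and 6136 for the 208 abundant protein-coding genes that were higher. In all, 40 of the 97 genes share at least 1 exon base with another annotated gene, and 11 share at least 20%.

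The median pooled SD of the replicates was 0.132 on the log2 scale for the 97 genes. It was 0.303 for the other lower genes, which are mostly less abundant. Among abundant protein-coding genes it was 0.118 for the 29 left out by name and 0.1005 for the 208 that were higher. By this median, the replicates of the 97 genes were not closer together than those of other abundant genes. The replicates of the 97 genes also deviated in 1 direction more often than not. NT replicate 1 was above NT replicate 2 in 73 genes (75.3%) and Go6983 replicate 1 above Go6983 replicate 2 in 77 (79.4%), and both held in 62. Over all listed genes the shares were 47.7% and 50.1%, and over the abundant protein-coding genes that were higher they were 51.0% and 31.3%. The 29 abundant genes left out by name had the same leaning as the set, 79.3% in both groups. The median gap, replicate 1 minus replicate 2 with its sign, was 0.09 in NT and 0.10 in Go6983. Without the sign, the median gap was 0.135 in NT and 0.144 in Go6983. These gaps were small beside the median difference of -1.24, and their part in the values was not tested.

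**Figure D4:**
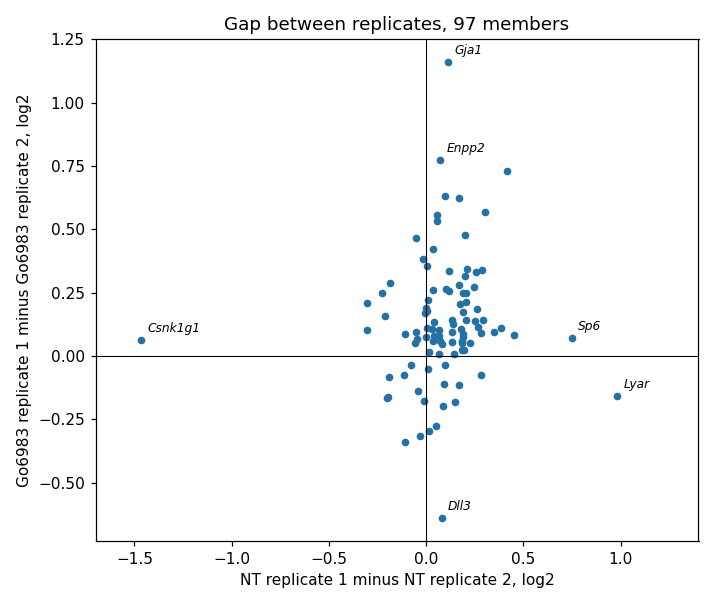
Gap between NT replicates (replicate 1 minus replicate 2, log2, x axis) against the gap between Go6983 replicates (y axis) for the 97 genes. Most points lie in the upper right near 0, while *Csnk1g1* and *Lyar* stand apart on the x axis and *Gja1* on the y axis.

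Leaving out each sample in turn kept all 97 log2 differences negative, and 73 of them stayed at -1 or below in every case. Of the 24 that did not, *Gja1*, *Csnk1g1* and *Lyar* were the genes whose difference moved by more than 1.5 times. In 12 genes a pair of replicates differed by more than 0.5 on the log2 scale. All log2 differences depend on the scaling of the libraries as deposited, which the listed genes alone cannot settle, because most of them were higher.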

How the data were processed

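RNA was sequenced from 2 NT and 2 Go6983 samples of 46C mESCs. The authors deposited 1 log2 value per gene and sample for 1577 selected genes, together with group means, fold changes, p-values and adjusted p-values, which were not used. Bowtie 0.12.2 and mm9 are named in the submitters' processing notes. How reads were counted, on which annotation and with which strand setting, and how they were normalized is not given in the sources used here. Once the log2 and the added 1 were undone, 100% of the deposited values were whole multiples of a step per sample (tolerance 0.05), so reads and normalized counts could be recovered. The library totals are not known, only the reads in listed genes.

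Gene IDs were matched to GENCODE vM21 (GRCm38), 1572 of 1577, and all 97 genes of the set were found. Positions are given in GRCm38, and no coordinate was taken from the deposited table. Promoters came from RefSeq. The groups come from the sample labels. All listed genes were fitted with limma 3.58.1 (trend, R 4.3.3) on the deposited log2 values, without a filter, with Benjamini-Hochberg adjustment over all of them, and the fit was tested on simulated data. With 2 samples a group, counting depth limits single values less than the spread between replicates does: the chi-square per gene between replicates was 9.75 in NT and 7.33 in Go6983, where counting error alone gives about 1. The genes named were the 12 with the largest fall, the 12 most abundant, up to 4 of each gene list, those nearest to the limits, and the 3 with the widest and the 3 with the narrowest gap between replicates. All others were named after their values were seen, to fill the groups by function, which were also made then. Some members are counted in their group but not reported by name here. The members and lists were chosen with earlier results of these data known. Pseudocounts, scaling, left-out samples, a replicate block, other limma settings, a filter and other limits were tried as alternatives.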

Additional observations from a re-analysis of the deposited data

How the results depend on the processing

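The number of listed genes called lower by limma (adjusted p below 0.05) was 469, and it was 452 to 476 with other pseudocounts, another scaling, voom or no trend, 325 with a filter at 50 normalized counts and 333 at an adjusted p below 0.01. Leaving out 1 sample gave 260 to 315 (for NT, 307 when replicate 1 and 315 when replicate 2 was dropped; for Go6983, 288 and 260 in that order), where the lone sample of a group was assumed to vary like the other group. Of the 97 genes of the set, 91 to 97 were called under every alternative. The median log2 difference, -1.24, was -1.21 to -1.28 without 1 sample, -1.26 with an abundance limit of 7 (132 genes) and -1.23 with a limit of 10 (46 genes). With the libraries scaled to a median ratio of 1 instead, the median of the set became -2.36 and that of all listed genes moved by -1.10, so most of the change is the scaling itself. The 38 members named by rule moved with that scaling and kept their direction under every alternative tried, but *Gja1*, *Csnk1g1* and *Lyar* changed by over 1.5 times without 1 sample. The replicate block, which pairs the samples by their number, gave 466 genes and 97 of the set; same-numbered deviations correlated at 0.032 over all genes and 0.188 over abundant genes, and the number is not known to mark a shared batch. With the promoter window ended at the gene start, TGANTCA was found in 5 of the 72 genes held and TGACGTCA in 1, as in the whole window, CACGTG and CCGGAAGT in 2 each instead of 3, CTTTGAA in 2 as before, GGGCGG in 33 instead of 38 and TATAAA in 5 instead of 7, and over all promoters TGANTCA was in 6.85% instead of 7.92%.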
